A study of Mus musculus with 19 samples.

Results

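The laminins, the basement membrane glycoproteins and the integrins were examined in neoplastic cells sorted from mouse lung tumors. Members were taken by gene symbol: laminin alpha, beta and gamma chain genes (*Lama*, *Lamb*, *Lamc*), integrin alpha and beta subunit genes (*Itga*, *Itgb*), and *Nid1*, *Nid2*, *Hspg2*, *Agrn*, *Tnc*, *Thbs1* and *Dag1*. Of 53558 genes in the files, 39 matched these names, and 33 of them had an expected count of 10 or more in at least 5 of the 19 libraries. The 33 are 4 laminin alpha, 3 laminin beta and 2 laminin gamma chains, 10 integrin alpha and 7 integrin beta subunits, 6 glycoproteins, and *Dag1*. *Itga4*, *Itgb2* and *Nid2* entered with 6 libraries each, mostly of the targeted groups. *Lama1*, with 3 libraries, all of sgLkb1, stayed just outside. *Itga10*, *Itga11*, *Itgae*, *Itgb7* and *Lamc3* were also left out.

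All mice carried *R26* LSL-tdTomato and *H11* LSL-Cas9, in which Cre turns on a red reporter and Cas9. They were 6 to 12 weeks old, of mixed C57BL/6J and 129 background, when a Cre lentivirus was given into the trachea, and cells were collected after 17 weeks. The virus carried sgNeo1/sgNT1/sgNeo2 (sgInert, 7 libraries), sgCebpa/sgCebpb/sgCebpd (sgCebpa/b/d, 7 libraries) or sgLkb1 (5 libraries). tdTomato-positive cells lacking CD45, CD31, F4/80 and Ter119 were sorted, and 25000 to 100000 cells gave each RNA sample. Cas9 need not cut in every infected cell, so a library of a targeted group may mix edited and unedited tumor cells.

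A laminin is a trimer of 1 alpha, 1 beta and 1 gamma chain that assembles in the cell, polymerises outside it and forms the first sheet of a basement membrane. Nidogens and perlecan (*Hspg2*) tie that sheet to collagen IV, and agrin (*Agrn*) links it to dystroglycan (*Dag1*) at the cell surface. Integrins are alpha and beta pairs. The α3β1, α6β1, α6β4 and α7β1 pairs bind laminins, α2β1 binds collagen and perlecan, and the αv pairs bind matrix proteins that carry an RGD motif, some of them activating latent TGF-β. In the alveolus, epithelial and endothelial cells share a fused basement membrane.

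Rounded expected counts summed to 2760722 to 9944131 per library (median 6028918), and the members took 0.304% to 0.485% of them. *Stk11*, the gene that encodes LKB1, had 7.52 to 12.5 CPM (counts scaled to library size) in sgLkb1 and 19.5 to 22.9 in sgInert libraries, a log2 fold change of -1.24 ± 0.17 (SE; adjusted p = 0.000107). *Cebpa* RNA was higher in sgCebpa/b/d (71.9 to 125 CPM) than in sgInert libraries (42.7 to 68.9), and the ranges of *Cebpb* and *Cebpd* overlapped. RNA level is no direct measure of cutting, so these 3 genes do not check the sgCebpa/b/d label. By their titles, 10 libraries had an animal number starting with MT, 4 one starting with ZR (all sgInert) and 5 none (3 sgCebpa/b/d, 2 sgLkb1). Some libraries shared an animal: the 7 sgInert libraries had 6 numbers, and the 4 numbered sgCebpa/b/d and 3 numbered sgLkb1 libraries had 2 each. P-values therefore measure the spread between libraries, not between mice. Fits of MT libraries alone rest on 3 sgInert, 4 sgCebpa/b/d and 3 sgLkb1 libraries, and all the shared animals are among these. sgInert was 3 female and 4 male libraries, sgCebpa/b/d 4 and 3, and sgLkb1 5 female. In sgCebpa/b/d the 4 female libraries were those with an MT number, and the 3 male ones those without a number. Within that group sex and title series therefore cannot be told apart, here and in every result below that leaves out unnumbered libraries.

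The 7 alveolar type II markers, *Sftpc* among them, summed to 31470 to 67973 TPM, a unit that also corrects for transcript length. As a sum, these markers were abundant in every library. They were lowest in unnumbered sgCebpa/b/d libraries (31470 to 46522 TPM), and 4 and 3 of them passed lower in sgCebpa/b/d and sgLkb1 (5.36% and 2.97% of all genes did). The 5 alveolar type I markers summed to 379.9 to 583.5 TPM in sgInert, 705.9 to 1429 for sgCebpa/b/d and 671.2 to 863.9 for sgLkb1. In sgCebpa/b/d 4 passed higher by edgeR (4.73% of all genes did). In sgLkb1 0 passed by edgeR (2.81% of all genes were higher), with 2 higher at an unadjusted p under 0.05, and DESeq2 passed 1. The 5 general epithelial markers summed to 391.1 to 1012 TPM. Markers of cells that make basement membrane themselves also moved with the groups. The 8 endothelial markers summed to 12.1 to 29.9 TPM in sgInert, 22.9 to 162.5 for sgCebpa/b/d and 47.9 to 122.4 for sgLkb1, and were highest in sgCebpa/b/d libraries without an animal number (119.2 to 162.5). All 8 had fitted changes above 0 in both comparisons with sgInert, and 5 and 1 were called (2.65% and 1.87% of all genes were called higher). The sort had removed CD31-positive cells. The 8 fibroblast markers summed to 5.55 to 51.8, 28.5 to 116.0 and 38.4 to 146.4 TPM in the same order of groups. All 7 that were tested lay above 0 in both comparisons, beside 7332 and 6793 of all 13986 genes tested. *Dcn* and *Postn* were called in both (2.65% and 1.87% of all genes). Immune markers were low in numbered libraries (5.44 to 22.2 TPM for 10 genes) and reached 26.3 to 52.4 TPM in the 5 without a number. Of 5 smooth muscle and pericyte markers tested, *Rgs5* was called higher in sgLkb1, and so was *Msln*, the mesothelial marker tested. The platelet marker *Gp9* was at 0 in every targeted library, and *Adgre1* and *Cd3e* of the immune markers were at 0 in every sgInert library. The part of these cells in the results below was not tested. In bulk RNA, fewer cells of a type and less RNA per cell cannot be told apart.

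Members were tested in one edgeR quasi-likelihood model of all 19 libraries, with Benjamini-Hochberg adjustment over the 13986 genes tested, which included all 33 members. A member passed at an adjusted p under 0.05, and was called when its absolute log2 fold change was also above 1. The F test across the 3 groups passed for 14 of the 33 (42.4%), against 13.4% of all genes. In sgCebpa/b/d against sgInert, 3 members were called higher (*Itgb3*, *Nid1*, *Lama2*; 2.65% of all genes were called higher) and 0 lower (2.00%). In sgLkb1 against sgInert, 3 were called higher (*Itgb3*, *Nid1*, *Lamb1*; 1.87%) and 0 lower (1.14%). In sgCebpa/b/d against sgLkb1, 0 were called higher (1.16%; 3 at an unadjusted p under 0.05 by edgeR and by DESeq2, which also called 0) and 1 lower (*Itga2*; 1.64%). By adjusted p alone, 9 were higher (4.73%) and 1 lower (5.36%) in sgCebpa/b/d, and 8 higher (2.81%) and 0 lower (2.97%) in sgLkb1. At an unadjusted p under 0.05, edgeR and DESeq2 alike gave 4 lower members in sgCebpa/b/d and 1 in sgLkb1, and DESeq2 also called 0 lower. Both comparisons use the same sgInert libraries.

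**Figure D1:**
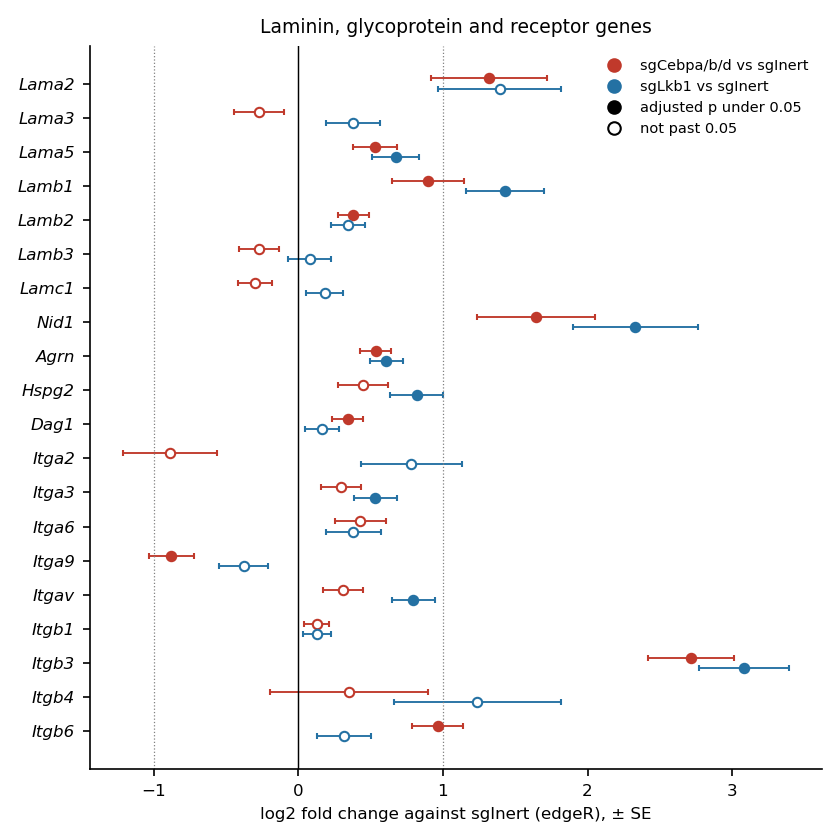
Log2 fold changes (x axis) with standard errors for the members described in full, for sgCebpa/b/d (red) and sgLkb1 (blue) against sgInert. Filled points passed an adjusted p of 0.05, and dotted lines mark -1 and 1. *Itgb3* lies farthest right in both comparisons, and *Itga9* and *Itga2* lie farthest left in sgCebpa/b/d.

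The median log2 fold change of the 33 members was 0.35 in sgCebpa/b/d and 0.53 in sgLkb1, with 23 and 27 members above 0. Over all genes tested the medians were 0.019 and -0.012. *Itga4*, *Itgb2*, *Itgb3*, *Itgb5*, *Itgb8*, *Lama4* and *Nid2* reached 10 counts in fewer than 5 sgInert libraries, so targeted libraries brought them in. Without these 7 the medians were 0.30 and 0.33, with 16 and 20 of 26 above 0. Against sgLkb1, sgCebpa/b/d members had a median of -0.25, with 9 of 33 above 0, beside a median of 0.029 over all genes.

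Of the members that passed, *Itgb3* changed most in both comparisons. It lies on chromosome 11 (104608000 to 104670476 in mm10) and encodes the β3 subunit, which pairs with αv to bind vitronectin, fibronectin and thrombospondin. It had 0.530 to 3.02 CPM (median 2.1) in the 7 sgInert libraries and 7.46 to 15.2 CPM (median 13.3) in the 7 sgCebpa/b/d libraries. The 5 sgLkb1 libraries had 13.15, 23.7, 17.0, 14.45 and 10.6 CPM. Every targeted library lay above every sgInert library, and only 3 of 7 sgInert libraries reached 10 counts. The log2 fold change was 2.71 ± 0.30 (SE; adjusted p = 2.16e-06) in sgCebpa/b/d and 3.08 ± 0.31 (adjusted p = 2.41e-06) in sgLkb1. Without the libraries that carry no animal number it was 2.75 and 3.3, and among MT libraries alone 2.96 and 3.51. In those MT libraries the fibroblast markers also differed, with sums of 5.55 to 6.82 TPM in sgInert, 28.5 to 116.0 for sgCebpa/b/d and 38.4 to 117.4 for sgLkb1. The endothelial markers there summed to 18.4 to 29.9, 22.9 to 44.5 and 47.9 to 75.4 TPM in the same order. *Itga2b*, the platelet partner of β3, had a median of 0, 0.050 and 0.54 TPM in the 3 groups. The 4 platelet markers together summed to 52.5 to 189.5 TPM in sgInert, 2.59 to 106.3 for sgCebpa/b/d and 32.0 to 70.6 for sgLkb1, most of it *Pf4*, a chemokine of platelet granules. *Pf4* had log2 fold changes of -1.31 ± 0.47 (adjusted p = 0.0787) and -1.21 ± 0.51 (adjusted p = 0.195), and passed in neither comparison. Which cells the *Itgb3* RNA came from was not tested. The *Itgb3* level stayed low next to *Itgb1* and *Itgb6*, with 1.88 to 6.21 TPM in targeted libraries.

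The partner *Itgav* (chromosome 2), the αv subunit, was among the most abundant members and rose in sgLkb1. It had 268.5 to 486.3 CPM (median 354.8) in sgInert, 367.9 to 551.7 (median 471.3) in sgCebpa/b/d, and 737.9, 607.0, 576.8, 793.6 and 563.7 CPM in sgLkb1. The sgLkb1 libraries lay above every sgInert and every sgCebpa/b/d library, and sgCebpa/b/d overlapped sgInert. Its log2 fold change was 0.80 ± 0.15 (adjusted p = 0.00210) in sgLkb1 and 0.31 ± 0.14 (adjusted p = 0.170) in sgCebpa/b/d. Among MT libraries alone it was 1.13 (adjusted p = 0.000157) in sgLkb1 and 0.78 (adjusted p = 0.00155) in sgCebpa/b/d.

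*Itgb6* (chromosome 2), the epithelial β6 subunit whose pair with αv activates latent TGF-β, rose in sgCebpa/b/d. It had 53.8 to 138.6 CPM (median 66.9) in sgInert, 129.2 to 158.4 (median 146.6) in sgCebpa/b/d, and 69.1, 113.5, 103.4, 105.3 and 69.3 CPM in sgLkb1. sgCebpa/b/d lay above every sgLkb1 library, and above every sgInert library but 1, replicate 3, which stood apart at 138.6 CPM. The log2 fold change was 0.96 ± 0.17 (adjusted p = 0.000778) against sgInert and 0.65 ± 0.19 (adjusted p = 0.0468) against sgLkb1. The first passed in all 30 refits, while the second passed in 9 of 30 and had an adjusted p of 0.525 without unnumbered libraries. sgLkb1 against sgInert gave 0.32 ± 0.19 (adjusted p = 0.401), and 0.77 (adjusted p = 0.00133) among MT libraries.

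*Itga9*, the α9 subunit that pairs with β1 and binds tenascin-C and osteopontin, fell in sgCebpa/b/d. It had 428.6 to 695.8 CPM (median 604.4) in sgInert, 214.4 to 442.1 (median 332.1) in sgCebpa/b/d, and 486.5, 434.6, 504.4, 421.7 and 395.7 CPM in sgLkb1. The sgCebpa/b/d libraries without a number were the lowest (214.4 to 230.7 CPM), those with an MT number reached 332.1 to 442.1, and the highest of these passed the lowest sgInert library. It differed by a log2 fold change of -0.88 ± 0.15 (adjusted p = 0.000576) in sgCebpa/b/d and -0.38 ± 0.17 (adjusted p = 0.230) in sgLkb1. It was -0.58 (adjusted p = 0.00736) in sgCebpa/b/d without the unnumbered libraries, and among MT libraries -0.67 (adjusted p = 0.00125) and, in sgLkb1, -0.44 (adjusted p = 0.0293).

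*Itga2* (chromosome 13), the α2 subunit of the collagen and perlecan receptor α2β1, moved apart between the targeted groups. It had 41.9 to 175.2 CPM (median 78.9) in sgInert, 23.2 to 114.6 (median 53.6) in sgCebpa/b/d, and 211.7, 120.1, 94.9, 258.1 and 185.1 CPM in sgLkb1. The sgInert range overlapped both others, and the highest sgCebpa/b/d library lay within the sgLkb1 range. Neither difference from sgInert passed, at -0.89 ± 0.33 (adjusted p = 0.0928) and 0.78 ± 0.35 (adjusted p = 0.222). The difference between sgCebpa/b/d and sgLkb1 was -1.67 ± 0.35 (adjusted p = 0.00485), and -1.24 without the unnumbered libraries (adjusted p = 0.173) and among MT libraries alone (adjusted p = 0.0366).

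**Figure D2:**
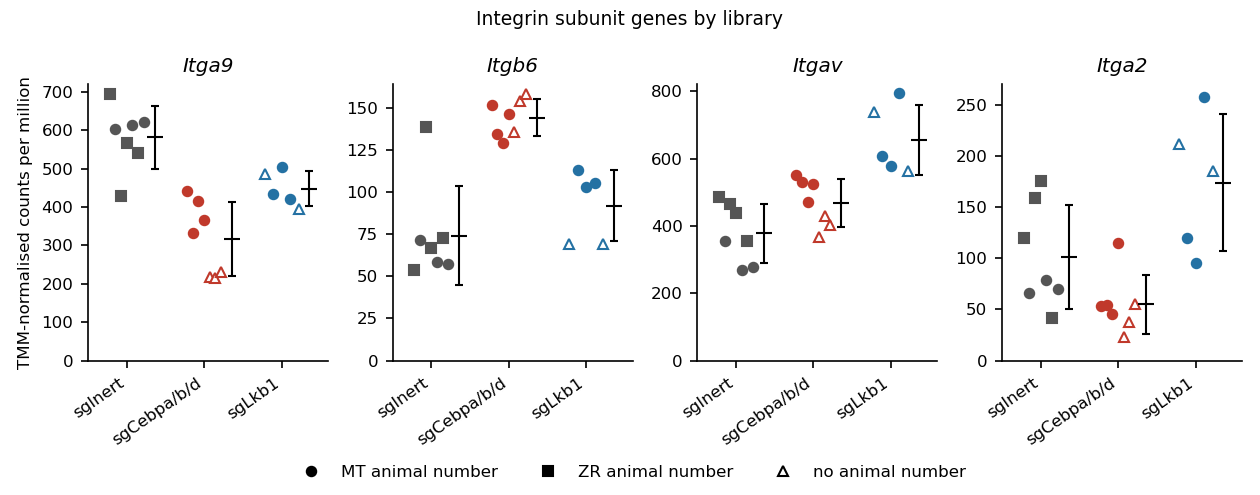
TMM-normalised CPM (y axis, from 0) of 4 integrin subunit genes in each library by virus group, with the mean ± SD in black. Circles are libraries with an MT number, squares ZR, and open triangles no number. *Itga9* is lowest in the unnumbered sgCebpa/b/d libraries, and sgInert replicate 3 lies with sgCebpa/b/d for *Itgb6*.

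Of the laminin-binding subunits α3, α6, α7, β1 and β4, *Itga3* passed and the other 4 did not. *Itga3* (α3) had 47.3 to 77.1 CPM (median 53.7) in sgInert, 57.2 to 92.6 (median 64.8) in sgCebpa/b/d, and 103.7, 72.4, 66.0, 95.5 and 65.1 CPM in sgLkb1. The groups overlapped. Its log2 fold change was 0.53 ± 0.15 (adjusted p = 0.0345) in sgLkb1, and 0.30 ± 0.14 (adjusted p = 0.195) in sgCebpa/b/d, where it was 0.56 (adjusted p = 0.0438) among MT libraries. The sgLkb1 result did not pass in 12 of 30 refits, among them those without sgInert replicate 1, 2, 5 or 7 or sgLkb1 replicate 1 or 4 (adjusted p 0.0518 to 0.115).

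*Itga6* (α6) had 78.65 to 185.8 CPM (median 136.5) in sgInert, 133.8 to 247.3 (median 210.8) for sgCebpa/b/d and 135.6 to 219.8 (median 193.1) for sgLkb1. Its log2 fold changes were 0.43 ± 0.18 (adjusted p = 0.136) and 0.38 ± 0.19 (adjusted p = 0.294), and the sgCebpa/b/d value among MT libraries was 0.75 (adjusted p = 0.00556). *Itgb1*, the shared β1 subunit, had 349.6 to 447.6 CPM in sgInert, 346.3 to 478.6 for sgCebpa/b/d and 390.0 to 470.6 for sgLkb1. Its log2 fold changes were 0.13 ± 0.088 (adjusted p = 0.426) and 0.13 ± 0.096 (adjusted p = 0.524), and 0.38 (adjusted p = 0.00874) in sgCebpa/b/d among MT libraries. *Itgb4*, the β4 subunit that anchors hemidesmosomes with α6, was near the floor, at 0 to 9.03 CPM over all libraries. Its fitted log2 changes were 0.35 ± 0.55 and 1.24 ± 0.58 (adjusted p = 0.761 and 0.251).

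In TPM, which allows levels of different genes to be compared, *Itgb1* took 75.4% to 89.8% of the summed β subunits in each library. *Itgb6* was next, with 8.19% to 20.9%, and *Itgb3* took 0.0476% to 0.337% in sgInert, 0.650% to 1.52% for sgCebpa/b/d and 1.24% to 2.35% for sgLkb1. *Itgb4* was at most 2.79 TPM while *Itga6* was 33.4 to 107.1 TPM, so the lower chain of the α6β1 pair was *Itga6* and that of α6β4 was *Itgb4* in all 19 libraries. Among α subunits, *Itga9* held a median of 51.7% of the summed TPM in sgInert, 28.9% for sgCebpa/b/d and 35.4% for sgLkb1. *Itgav* held a median of 18.9%, 26.4% and 28.6%, and *Itga6* of 14.1%, 22.1% and 16.0%. These shares are descriptions, and a share also moves when another subunit of its class does.

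**Figure D3:**
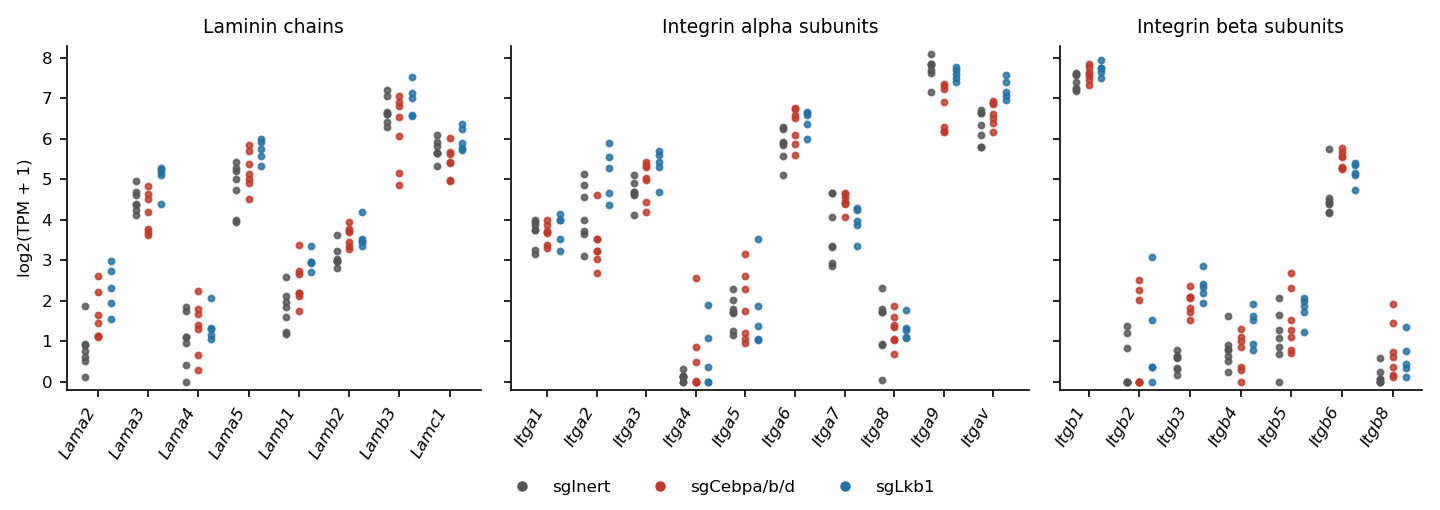
Levels in log2(TPM + 1) (y axis) of laminin chains and of the integrin α and β subunits, 1 point per library, for sgInert (grey), sgCebpa/b/d (red) and sgLkb1 (blue). *Itga9* and *Itgb1* are the highest of the integrin panels, and *Itgb3* is the β subunit whose targeted libraries all lie above sgInert.

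Among the ligands, *Lama3* and *Lamb3*, which encode laminin chains of epithelial basement membranes, passed in neither comparison with sgInert. *Lama3* (α3 chain) had 81.4 to 138.5 CPM (median 94.8) in sgInert, 55.0 to 115.8 (median 82.4) in sgCebpa/b/d, and 146.0, 158.3, 136.3, 137.3 and 82.1 CPM in sgLkb1. The fifth sgLkb1 library stood apart from the other 4, and every group overlapped. *Lama3* did not pass against sgInert (-0.27 ± 0.17, adjusted p = 0.383; 0.38 ± 0.19, adjusted p = 0.289). Between the targeted groups the log2 difference, sgCebpa/b/d minus sgLkb1, was -0.64 ± 0.19 (adjusted p = 0.0429). It did not pass in 14 of 30 refits, 9 of them without 1 library, sgInert replicate 4, sgCebpa/b/d replicate 3, 5, 6 or 7, or sgLkb1 replicate 1, 2, 3 or 4 (adjusted p 0.0504 to 0.118). *Lamb3* (β3 chain) had 81.7 to 109.1 CPM in sgInert, 56.4 to 98.6 for sgCebpa/b/d and 77.4 to 122.1 for sgLkb1, and the lowest 3 were the unnumbered sgCebpa/b/d libraries (56.4 to 68.5). Its log2 fold changes were -0.27 ± 0.14 (adjusted p = 0.254) and 0.078 ± 0.15 (adjusted p = 0.852).

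On the TPM scale *Lama3* was at 11.3 to 38.0, and *Lamb3* was 2.20 to 7.45 times as abundant in the same library.

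Of the chains of laminin-511 and laminin-521, the α5 laminins of epithelial basement membranes, *Lama5*, *Lamb1* and *Lamb2* passed in at least 1 comparison with sgInert. *Lama5* (α5, chromosome 2) had 36.2 to 73.7 CPM (median 54.3) in sgInert, 57.6 to 99.5 (median 78.5) in sgCebpa/b/d, and 93.5, 87.0, 95.7, 74.4 and 77.6 CPM in sgLkb1. Every sgLkb1 library lay above every sgInert library, while sgCebpa/b/d overlapped sgInert. The log2 fold change was 0.67 ± 0.16 (adjusted p = 0.0149) in sgLkb1 and 0.53 ± 0.15 (adjusted p = 0.0259) in sgCebpa/b/d. The latter was 0.33 (adjusted p = 0.325) without the unnumbered libraries, and sgCebpa/b/d replicates 5 and 7 and sgInert replicate 7 each ended it when left out (adjusted p 0.0568 to 0.0620). The sgLkb1 result did not pass with length offsets, with the title series as covariate or with libraries of 1 animal summed (adjusted p up to 0.188).

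*Lamb1* (β1 chain, chromosome 12, 31265234 to 31329644) had 5.85 to 14.3 CPM (median 8.64) in sgInert, 9.77 to 30.3 (median 15.02) in sgCebpa/b/d, and 25.4, 25.2, 16.7, 24.2 and 36.8 CPM in sgLkb1. The sgLkb1 libraries lay above every sgInert library, and the highest values of both targeted groups were in unnumbered libraries. Its log2 fold change was 1.43 ± 0.27 (adjusted p = 0.00212) in sgLkb1 and 0.90 ± 0.25 (adjusted p = 0.0237) in sgCebpa/b/d. Among MT libraries alone it was 1.01 (adjusted p = 0.0640) and 0.32 (adjusted p = 0.603), and the same 3 single libraries as for *Lama5* each ended the sgCebpa/b/d result (adjusted p 0.0508 to 0.0660).

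*Lamb2* (β2 chain) had 23.3 to 34.1 CPM (median 30.0) in sgInert, 33.8 to 42.4 (median 38.8) for sgCebpa/b/d and 31.4 to 47.2 (median 36.2) for sgLkb1. Its log2 fold change was 0.38 ± 0.11 (adjusted p = 0.0259) in sgCebpa/b/d and 0.34 ± 0.12 (adjusted p = 0.0933) in sgLkb1, with overlap in both. *Lamc1*, the γ1 chain common to these trimers, had 128.8 to 176.7 CPM (median 159.4) in sgInert, 94.8 to 156.4 (median 133.6) for sgCebpa/b/d and 146.2 to 203.3 (median 169.7) for sgLkb1. It did not pass against sgInert (-0.30 ± 0.12, adjusted p = 0.119; 0.18 ± 0.13, adjusted p = 0.498), and its difference between the targeted groups, sgCebpa/b/d minus sgLkb1, was -0.48 ± 0.13 (adjusted p = 0.0264). *Lamb2* did not pass in 8 of 30 refits, 3 of them without sgInert replicate 2 or sgCebpa/b/d replicate 4 or 7 (adjusted p 0.0539 to 0.0566). *Lamc1* did not pass in 9, 4 of them without sgCebpa/b/d replicate 6 or sgLkb1 replicate 1, 2 or 3 (adjusted p 0.0543 to 0.0910), and without the unnumbered libraries their adjusted p was 0.132 and 0.301.

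The β chain was the lowest of the α5 trimers on the TPM scale. *Lamb1* was the lowest of the laminin-511 chains in all 19 libraries, at 1.28 to 5.06 TPM in sgInert, 2.37 to 9.43 for sgCebpa/b/d and 5.53 to 9.24 for sgLkb1. *Lamb2* was the lowest of the laminin-521 chains in all 19, at 6.00 to 17.4 TPM. *Lamb3* took 60.6% to 93.8% of the summed β chains, and *Lama5* 40.2% to 75.6% of the summed α chains.

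*Lama2*, the α2 chain of muscle and mesenchymal laminins, was called in sgCebpa/b/d but rested on few counts. It had 0.729 to 10.4 CPM (median 3.10) in sgInert, 6.03 to 19.98 (median 9.83) in sgCebpa/b/d, and 15.2, 8.47, 13.5, 6.98 and 9.18 CPM in sgLkb1. Targeted libraries were higher with overlap, since 1 sgInert library reached 10.4 CPM. The log2 fold change was 1.32 ± 0.40 (adjusted p = 0.0378) in sgCebpa/b/d and 1.39 ± 0.43 (adjusted p = 0.0574) in sgLkb1. DESeq2 called *Lama2* in sgLkb1 too, at 1.40 (adjusted p = 0.0216). The sgCebpa/b/d result was lost in 15 of 30 refits, 9 of which left out 1 library (adjusted p 0.0530 to 0.109). These libraries were sgInert replicates 1 to 5 and sgCebpa/b/d replicates 3, 4, 5 and 7. Without the unnumbered libraries the sgCebpa/b/d change was 1.02 (adjusted p = 0.252).

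The nidogen gene *Nid1* (chromosome 13, 13437551 to 13512269), whose protein bridges the laminin γ1 chain to collagen IV, was called in both comparisons. It had 2.39 to 12.1 CPM (median 3.61) in sgInert, 9.77 to 35.96 (median 16.2) in sgCebpa/b/d, and 39.3, 17.1, 17.0, 19.9 and 54.8 CPM in sgLkb1. The sgLkb1 libraries lay above every sgInert library, sgCebpa/b/d overlapped it, and the highest values of both were in unnumbered libraries. It differed by a log2 fold change of 1.65 ± 0.41 (adjusted p = 0.0106) in sgCebpa/b/d and 2.33 ± 0.43 (adjusted p = 0.00199) in sgLkb1. Without the unnumbered libraries these were 1.08 (adjusted p = 0.128) and 1.62 (adjusted p = 0.0366), and among MT libraries alone 1.64 (adjusted p = 0.00530) and 2.18 (adjusted p = 0.00101).

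**Figure D4:**
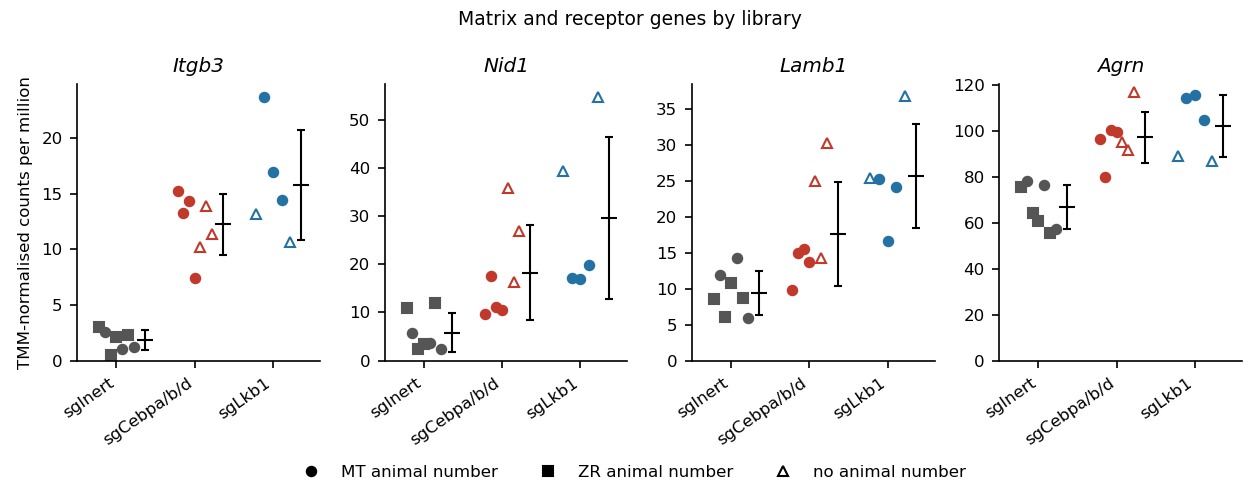
TMM-normalised CPM (y axis, from 0) of *Itgb3*, *Nid1*, *Lamb1* and *Agrn* in each library by virus group, with the mean ± SD in black and symbols for the title series as above. *Itgb3* and *Agrn* of both targeted groups lie above all sgInert libraries, and the highest *Nid1* and *Lamb1* value of each targeted group is an open triangle, a library without a number.

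The promoters of *Nid1* and *Lamb1* are shown because these ligand genes were called in sgLkb1 and the virus of the other targeted group cuts genes of C/EBP factors, which bind related DNA letters. Each is given 5′ to 3′ on the plus strand (RefSeq, GRCm38.p6), from 250 bases before the RefSeq start up to the base before the gene in the files' annotation. *Nid1* is chr13:13437352-13437550 (199 bases) and *Lamb1* is chr12:31265043-31265233 (191 bases), and capitals mark a match to TTGCNNAA, a loose C/EBP sequence searched on both strands.
*Nid1*: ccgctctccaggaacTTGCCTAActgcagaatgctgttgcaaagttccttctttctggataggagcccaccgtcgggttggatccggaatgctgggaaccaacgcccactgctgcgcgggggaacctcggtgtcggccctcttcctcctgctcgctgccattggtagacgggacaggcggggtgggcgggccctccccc
*Lamb1*: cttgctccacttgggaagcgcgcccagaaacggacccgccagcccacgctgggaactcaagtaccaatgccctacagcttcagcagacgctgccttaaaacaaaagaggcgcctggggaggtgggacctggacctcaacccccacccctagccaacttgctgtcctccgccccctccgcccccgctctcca
The *Nid1* window of 250 bases holds 1 match, which begins 235 bases before the RefSeq start, and the *Lamb1* window holds 0. Of the 33 members, 22 were in the promoter table, and *Nid1* alone of them held the motif (4.55%), against 10.8% of 27025 genes. TGACG, the core of the cAMP response element, was searched on both strands and counted on its own, also where it overlaps the first motif. It was in 4 of the 22 (*Itga9*, *Itgb1*, *Itgb6* and *Lama5*; 18.2%), against 19.8% of genes. Such matches describe letters, not bound sites.

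The heparan sulfate proteoglycan genes *Agrn* and *Hspg2* also passed. *Agrn* (chromosome 4, 156165290 to 156197488) had 55.8 to 78.3 CPM (median 64.4) in sgInert, 79.9 to 117.3 (median 96.7) in sgCebpa/b/d, and 89.3, 114.6, 115.7, 104.9 and 87.1 CPM in sgLkb1. Every targeted library lay above every sgInert library in CPM. In TPM, sgCebpa/b/d (lowest 46.8) overlapped sgInert (highest 48.7). The log2 fold change was 0.54 ± 0.11 (adjusted p = 0.00183) in sgCebpa/b/d and 0.61 ± 0.12 (adjusted p = 0.00231) in sgLkb1, and among MT libraries 0.40 (adjusted p = 0.0904) and 0.64 (adjusted p = 0.0124). *Hspg2* had 19.3 to 43.6 CPM (median 29.5) in sgInert, 30.4 to 53.3 (median 46.0) in sgCebpa/b/d, and 47.1, 59.3, 68.2, 57.5 and 45.3 CPM in sgLkb1. All sgLkb1 libraries were above sgInert. Its log2 fold change was 0.82 ± 0.18 (adjusted p = 0.00919) in sgLkb1 and 0.45 ± 0.17 (adjusted p = 0.110) in sgCebpa/b/d, and among MT libraries the latter was 0.56 (adjusted p = 0.0319). The sgLkb1 result did not pass with gene length offsets or in limma on TPM (adjusted p up to 0.0970).

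*Dag1*, dystroglycan, is the receptor that *Agrn*, *Hspg2* and the laminins share. It had 293.3 to 468.0 CPM (median 391.6) in sgInert, 364.9 to 542.0 (median 490.0) for sgCebpa/b/d and 376.4 to 481.4 (median 424.9) for sgLkb1. It was higher in sgCebpa/b/d by 0.34 ± 0.11 (adjusted p = 0.0464), and its change in sgLkb1 was 0.17 ± 0.12 (adjusted p = 0.501). The sgCebpa/b/d result did not pass in 20 of 30 refits (adjusted p from 0.0142 to 0.154 over all refits), 15 of them without 1 library, any but sgInert replicates 1, 2 and 4 and sgCebpa/b/d replicate 5. In TPM, *Dag1* ranged from 69.5 to 134.3, *Agrn* from 27.9 to 76.7 and *Hspg2* from 2.67 to 37.2.

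Groups that do not overlap in CPM can be counted over all members. Every sgCebpa/b/d library lay above every sgInert library for 2 members, *Agrn* and *Itgb3* (1.28% of all genes). Every sgLkb1 library lay above sgInert for 7, *Agrn*, *Hspg2*, *Itgav*, *Itgb3*, *Lama5*, *Lamb1* and *Nid1* (2.15%). In TPM, *Agrn* overlapped between sgCebpa/b/d and sgInert. *Hspg2*, *Lama5* and *Nid1* in TPM overlapped between sgLkb1 (lowest 8.98, 39.0 and 4.09) and sgInert (highest 12.8, 42.1 and 4.98). sgCebpa/b/d lay above sgLkb1 for 2, *Itga7* and *Itgb6* (2.22%), and below it for 2, *Itgav* and *Thbs1* (2.87%). *Itga7* and *Itgb6* overlapped between these groups in TPM. By adjusted p alone in edgeR, sgCebpa/b/d was higher than sgLkb1 for 1 member, *Itgb6* (2.83%), and lower for 3, *Itga2*, *Lama3* and *Lamc1* (3.12%).

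Ligands and receptors were set side by side in TPM. For a pair, the lower chain in TPM is given, which says nothing of the protein. With *Itgb1*, *Itga3* was the lower chain in all 19 libraries, with medians of 24.8, 31.8 and 41.8 TPM in the order sgInert, sgCebpa/b/d, sgLkb1, and *Itga6* had 58.9, 89.9 and 94.8. *Itga2*, whose pair binds perlecan, had 14.9, 8.41 and 37.5 TPM beside *Hspg2* at 6.82, 11.9 and 21.5. For the αv pairs, *Itgb6* was the lower chain with medians of 20.4, 45.6 and 34.7 TPM, *Itgb3* with 0.50, 3.19 and 4.10, *Itgb5* with 1.12, 1.44 and 2.69 and *Itgb8* with 0.050, 0.53 and 0.36. In the α9β1 pair, *Itga9* was the lower chain in 12 of 19 libraries, which were 1 sgInert, 7 sgCebpa/b/d and 4 sgLkb1 libraries. *Nid1*, which binds *Lamc1* and αv integrins, had medians of 0.80, 4.79 and 9.30 TPM beside 49.4, 41.8 and 58.4 for *Lamc1*. Laminin-binding *Itga3*, *Itga6* and *Itga7* had medians of 30.5, 75.1 and 18.0 TPM over all libraries, beside 21.8 for *Lama3* and 37.7 for *Lama5*. *Tnc*, tenascin-C, a ligand of α9β1, α8β1 and αv integrins, was at 0.90 to 6.46 TPM, far below *Itga9* (70.8 to 270.9 TPM), and *Itga8* was at 0.040 to 4.02 TPM. *Thbs1*, thrombospondin-1, a ligand of α3β1 and αvβ3 that also activates TGF-β, was at 27.5 to 227.8 TPM in sgInert, 43.1 to 71.5 for sgCebpa/b/d and 84.5 to 118.9 for sgLkb1. Its log2 fold changes were -0.79 ± 0.31 (adjusted p = 0.110) and -0.10 ± 0.33 (adjusted p = 0.915), and its spread was widest within sgInert.

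The members not yet described did not pass in a comparison with sgInert by edgeR. DESeq2 passed *Lama4* in sgCebpa/b/d (adjusted p = 0.0160) and *Nid2* in both comparisons (adjusted p = 0.0310 and 0.0227). *Itga1* (a collagen receptor subunit) and *Itga7* lay at 7.95 to 16.8 and 6.21 to 24.4 TPM. *Itga5*, the fibronectin receptor subunit, and *Itgb5*, *Itgb8* and *Lama4*, the vascular laminin α4 chain, had medians of 2.28, 1.44, 0.26 and 1.46 TPM. *Itga4*, *Itgb2* and *Nid2*, which leukocytes or stromal cells use, had medians of 0.090, 0.28 and 0.19 TPM. *Itga4* reached 17 to 146 counts in the 5 unnumbered libraries and at most 13 in the others, and *Itgb2* 22 to 77 against at most 11. *Nid2* had 0 to 6 counts in sgInert libraries and 0 to 73 in targeted ones.

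Lists around the members gave the following. Of 17 other basement membrane genes tested, 8 passed higher in sgCebpa/b/d (4.73% of all genes did) and 5 in sgLkb1 (2.81%), and 0 passed lower in either by edgeR (0 and 1 at an unadjusted p under 0.05, and 0 and 1 at an adjusted p in DESeq2). *Pxdn*, peroxidasin, which cross-links collagen IV, passed in both (2.57 ± 0.47, adjusted p = 0.000898; 2.22 ± 0.50, adjusted p = 0.00855), as did *Sparc* (0.43 ± 0.077 and 0.55 ± 0.083) and the collagen IV genes *Col4a1* and *Col4a5*. *Col4a3*, *Col4a4*, *Fras1* and *Frem2* passed in sgCebpa/b/d, where *Col4a4* changed by 1.22 ± 0.18 (adjusted p = 7.46e-05) and *Frem2* by 2.58 ± 0.40 (adjusted p = 0.000156). *Frem1* passed in sgLkb1. In sgInert, *Frem1*, *Frem2*, *Fras1* and *Pxdn* were near the floor, at no more than 0.22, 0.84, 3.03 and 2.64 TPM. Between the targeted groups, 4 of the 17 passed higher in sgCebpa/b/d, *Col4a3*, *Col4a4*, *Egfl6* and *Frem2* (2.83% of all genes did). By edgeR 0 passed lower (3.12%), and DESeq2 called 1 lower. *Col4a3*, *Col4a4* and *Frem2* differed by 0.58 ± 0.15, 1.07 ± 0.20 and 1.82 ± 0.42 (adjusted p = 0.0209, 0.00146 and 0.0109). *Egfl6* was at 518.9 to 1419 TPM in sgCebpa/b/d and 524 to 724.8 TPM in sgLkb1.

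Of 25 genes for proteins that bind integrin tails or sit beside integrins, 3 passed higher in sgCebpa/b/d (4.73% of all genes). They were *Flna*, *Tns1* and *Cd9*. In sgLkb1, 1 passed higher, *Flna* (2.81% of all genes did), a share near that of all genes. By edgeR 0 passed lower in either, while DESeq2 passed 1 lower in sgCebpa/b/d. Neither tool called any. At an unadjusted p under 0.05, edgeR gave 7 and 4 higher and 1 and 2 lower. *Flna*, filamin A, which crosslinks actin and binds β tails, changed by 0.78 ± 0.097 (adjusted p = 1.15e-05) and 0.57 ± 0.10 (adjusted p = 0.00189). Of 5 hemidesmosome genes tested, which include *Itga6* and *Itgb4*, 0 passed in either comparison by edgeR or DESeq2, and 1 was higher in each at an unadjusted p under 0.05 in edgeR. Of 16 dystroglycan glycosylation genes, *B3galnt2* and *Pomt2* passed lower in sgCebpa/b/d (5.36% of all genes did), by -0.67 ± 0.11 (adjusted p = 0.000233) and -0.64 ± 0.16 (adjusted p = 0.00899), and 0 passed in sgLkb1 by edgeR or DESeq2 (1 higher and 1 lower at an unadjusted p under 0.05). The list medians were 0.72 and 0.55 for the basement membrane list, 0.20 and -0.023 for the adhesion partners, 0.18 and 0.18 for the hemidesmosome list and -0.042 and -0.082 for the glycosylation list, in sgCebpa/b/d and sgLkb1 in turn.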

How the data were processed

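RNA of sorted tumor cells was made into libraries with the Trio RNA-Seq kit and sequenced by the authors, whose reads were aligned to mm10 with STAR 2.6.1d and quantified with RSEM 1.2.30. Expected counts, as deposited, are unnormalized gene estimates of RSEM, and the deposited TPM and effective lengths come from the same step. Effective lengths entered the length offsets. The authors' normalized values and DESeq2 comparison columns (fold changes, p-values) were not used.

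Expected counts were rounded to whole numbers. Genes were kept by filterByExpr (minimum count 10, total 15), normalized by TMM, and fitted with edgeR 4.0.16 (R 4.3.3, limma 3.58.1, DESeq2 1.42.0, Python 3.11.15). CPM are TMM-normalized, and TPM are as deposited. Members and gene lists were chosen with earlier results of these data known. Described in full were members past an adjusted p of 0.05 against sgInert or in the F test, and *Lama3*, *Lama5*, *Lamb1*, *Lamb2*, *Lamb3*, *Lamc1*, *Itga3*, *Itga6*, *Itgb1*, *Itgb4* and *Dag1*. The results of 1 member and an allele that all mice carried are not reported here. *Thbs1* and members of the lists were named after their values were seen. Each fold change had 30 refits: 11 alternatives, of which 1 was chosen after seeing the data, and 19 with 1 library left out. No pair of replicates differed by less than sampling noise (chi-square per gene 7.34 to 76.8). Coordinates are from GENCODE on GRCm38 (mm10), and promoters from RefSeq (GRCm38.p6).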

Additional observations from a re-analysis of the deposited data

Results flagged for a closer look

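Over 63 groups of libraries (21 members in 3 groups), 4 held a library far from the others by Dixon's criterion on the log2 scale, and chance gives about 1 in 20 groups. *Itgb6* was at 138.6 CPM in sgInert replicate 3, above the other sgInert libraries. *Itga3* was at 77.1 CPM in sgInert replicate 4, also high. *Dag1* was at 364.9 CPM in sgCebpa/b/d replicate 5, below the rest of its group. *Lama3* was at 82.1 CPM in sgLkb1 replicate 5, below the other 4.

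The change in sgCebpa/b/d and the change in sgLkb1 differed by edgeR's test of the targeted groups against each other for 4 members, whose log2 differences (sgCebpa/b/d minus sgLkb1) were -1.67 for *Itga2*, 0.65 for *Itgb6*, -0.64 for *Lama3* and -0.48 for *Lamc1*. None of the 4 passed without the libraries that carry no animal number. DESeq2 also passed *Itga9* (-0.51, adjusted p = 0.0390) and *Itgav* (-0.49, adjusted p = 0.0235) between the targeted groups.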

How the results depend on the processing

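With both thresholds, sgCebpa/b/d had 3 members higher than sgInert, 5 by DESeq2's Wald test and 1 (*Itgb3*) without the unnumbered libraries, an alternative chosen after seeing the data. sgLkb1 had 3 higher, 5 by DESeq2, 5 with gene length offsets and 8 with sex as a covariate. Summing libraries of 1 animal gave 1 lower member in sgCebpa/b/d (*Itga9*) instead of 0. sgCebpa/b/d against sgLkb1 had 1 lower member, and 0 without the unnumbered libraries. By adjusted p alone, the counts were 9 higher and 1 lower in sgCebpa/b/d, 8 and 0 in sgLkb1, and 1 and 3 between them. Leaving out 1 library gave 2 to 5 higher and 0 to 1 lower members in sgCebpa/b/d and 3 to 4 higher in sgLkb1. It gave 5 without sgCebpa/b/d replicate 2, and 1 lower member (*Itga2*) without sgInert replicate 6 or sgCebpa/b/d replicate 4. The cause of these shifts was not tested.

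All 22 fold changes past an adjusted p of 0.05 kept their sign in all 660 refits, and of the 77 others 28 changed sign in 123 of 2292 refits. Among the described members compared with sgInert these were *Itgb4* in sgCebpa/b/d (-0.0899 in limma on log2(TPM + 1), -0.0700 with length offsets), and in sgLkb1 *Lamb3* (-0.0869) and *Lamc1* (-0.0270) with sex as a covariate. Of the 28, 13 were between the targeted groups, 5 of them of described members (*Dag1*, *Itga6*, *Itgb1*, *Lama2*, *Lamb2*). Limma on TPM moved the median of all genes to 0.18 in sgLkb1 and -0.15 in sgCebpa/b/d against sgLkb1, so fold changes there read relative to it, and its calls over all genes in sgLkb1 were 382 higher and 90 lower, beside 261 and 160. Depth limits *Itga4*, *Itga8*, *Itgb2*, *Itgb4*, *Itgb5*, *Itgb8*, *Lama2*, *Lama4* and *Nid2*, with few counts in several or many libraries. It also limits *Itgb3* in sgInert, where it had 2 to 16 counts. MT libraries alone, and the set without unnumbered ones, kept 30 of 33 members.

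Replicate numbers did not pair libraries: correlations of same-number pairs were -0.15 to 0.23, with 2 of 17 over 0.1. With the replicate block, 4 members were higher in sgCebpa/b/d and 4 in sgLkb1.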
